A study of Mus musculus with 16 samples.

Results

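Interleukins are secreted signals between cells, and each acts through receptor chains on the surface of the receiving cell. The genes described here are the interleukins and interleukin receptors on an Affymetrix mouse array, taken as every gene whose symbol starts with Il and a number. This gave 73 members of 18194 genes, each read from its own probe set with the highest mean signal, and 49 of them lay above background often enough to be tested among 14286 genes. By role they were 32 ligands, 33 receptor chains, 6 decoy receptors or antagonists and 2 others, the enzyme gene Il4i1 and the antisense RNA Il1bos.

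The arrays came from sorted cells of mouse tail epidermis on a mixed strain background, and values are log2 signals. K14CREER/Rosa-SmoM2-YFP mice express SmoM2, a mutant Smoothened that keeps hedgehog signalling switched on and gives rise to basal cell carcinoma in this model, in keratin 14 positive cells after tamoxifen. Basal cells of the interfollicular epidermis (IFE) were taken from untreated mice of this genotype (n = 3) and as SmoM2-positive cells after tamoxifen, with 1 array at 3 days, 3 arrays each at 1 and 4 weeks and 2 arrays at 10 weeks. Mice of that genotype that also carry b-cat flox/flox alleles, and so lose β-catenin in the same cells, gave 2 arrays at 4 weeks. K19CREERT2/Rosa-SmoM2-YFP mice gave bulge and outer root sheath cells of the hair follicle, 1 untreated array and 1 array 4 weeks after tamoxifen. The source label of the untreated bulge array speaks of SmoM2-positive cells although its mice had no tamoxifen. All groups carry the SmoM2 allele, no group has tamoxifen without SmoM2 or β-catenin loss without SmoM2, and ages are not in the labels. SmoM2, tamoxifen, time since it and the gate on SmoM2-positive cells therefore cannot be told apart. Whether a replicate is a mouse or a pool of mice is not in the labels, and p-values therefore cover only the spread among these arrays, which may be technical.

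In skin, keratinocytes both make and receive interleukins. IL-1 family members (IL-1, IL-18, IL-33 and the IL-36 cytokines) act as alarm signals and are held in check by antagonists such as IL-1Ra and by decoy receptors. IL-17 and the IL-20 and IL-22 group act on keratinocytes from immune cells or neighbouring keratinocytes, while receptors of the IL-6 group share the chain gp130, the product of Il6st, and signal through JAK kinases and STAT factors.

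The hedgehog targets Gli1, Ptch1 and Hhip served as a check of SmoM2 activity, and some libraries stood apart from their groups. Gli1 read 5.30 to 5.73 in the IFE controls, 7.28 at 3 days, 8.50 to 10.16 at 1 week, 9.95 to 10.83 at 4 weeks and 9.70 to 9.86 at 10 weeks. The first β-catenin loss array had a Gli1 signal of 7.22 and a Ptch1 signal of 10.71, against 9.56 and 12.50 in the second. The untreated bulge array had 9.89 for Gli1 and 12.57 for Ptch1, close to the bulge array after tamoxifen (9.96 and 12.78), but Hhip was 7.67 in the former and 10.64 in the latter. The lowest Gli1 signal at 1 week was that of replicate 3. The 2 arrays at 10 weeks differed by a median of 0.12 (log2) per gene, less than other replicate pairs of IFE arrays (0.28 to 0.48). Basal keratinocyte markers were high in every array (list means of 11.64 to 12.72). Of the T-cell markers, Cd3d, Cd3g and Cd247 stayed at or below 5.22 throughout. That is near or below the level of 4.88 to 5.01 below which 40% of the probe sets of an array lie. Cd3e read 5.53 to 6.39, Cd7 4.95 to 5.99 and Thy1 4.67 to 9.21. Markers of Langerhans and other antigen presenting cells had list means of 5.42 to 7.75. Of these markers, Mfge8 read 7.82 to 10.64, H2-Aa 4.635 to 9.92 and Ciita 4.58 to 5.31. H2-Aa was below the level given above only in the first β-catenin loss array. Ciita was below it in some or all arrays of every group but the IFE controls, both β-catenin loss arrays among them.

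Receptor chains were detected more widely than their ligands. Of the 33 receptors, 25 were tested and 20 lay above the 40th percentile in all 16 arrays, and of the 32 ligands 17 were tested and 6 did so. All 6 decoys and antagonists were tested. The 24 members that were not tested had signals of 3.09 to 5.14, and 22 of them were below the 40th percentile in every array. Among them were the ligand genes Il1a, Il6, Il10, Il12a, Il13, Il15, Il25 and Il31 and the receptor genes Il2ra, Il2rb, Il12rb1 and Il12rb2. Il2rg, Il1rl1 and Il11ra1 were not analysed here.

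**Figure D1:**
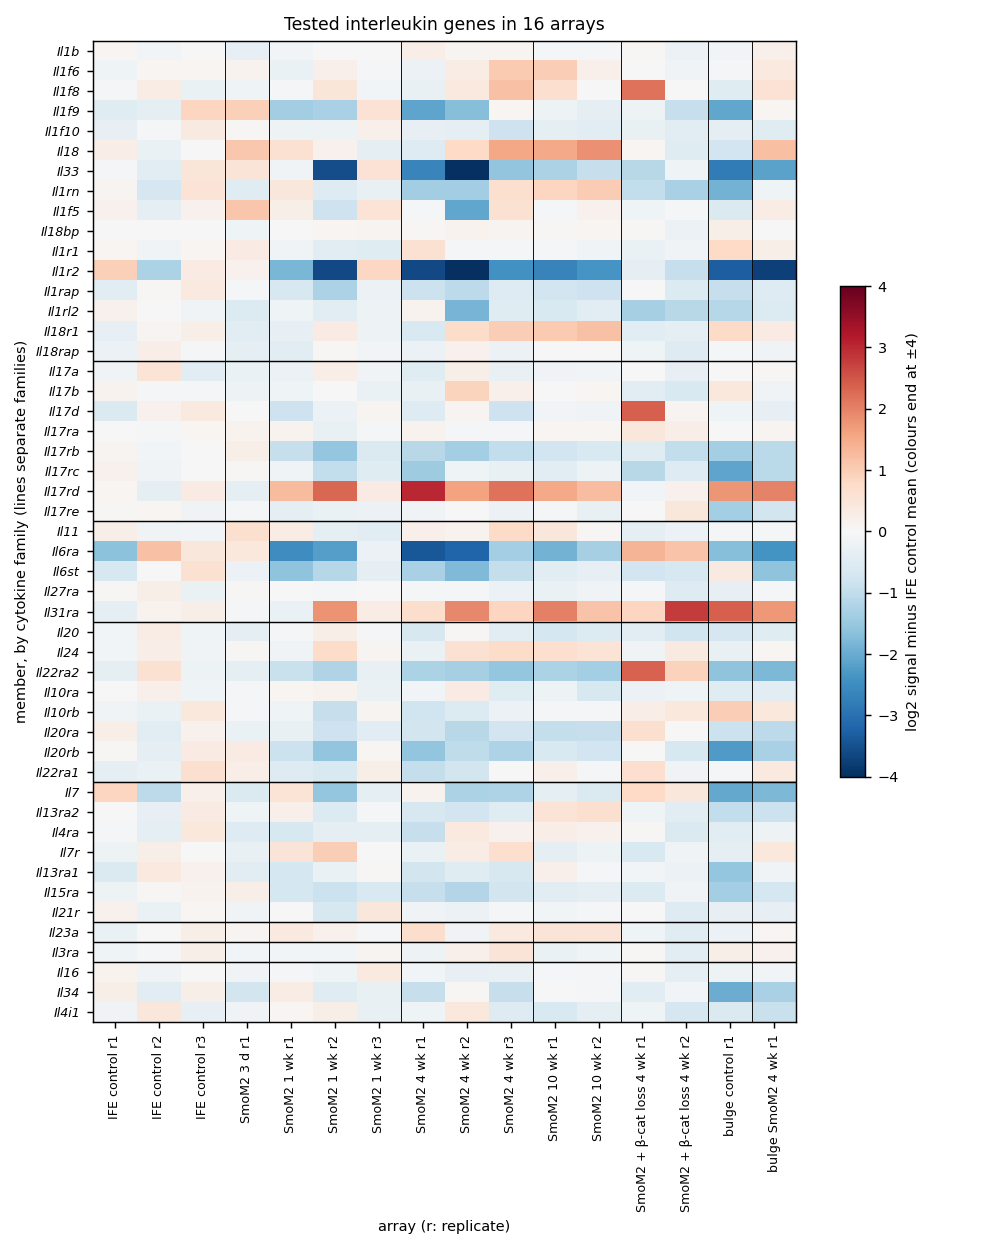
Log2 signal of the 49 tested members (rows, grouped by cytokine family) in the 16 arrays (columns), minus the mean of the 3 IFE control arrays of the same probe set. Blue is lower and red higher than the control mean. Il1r2, Il33 and Il6ra have the darkest blue at 4 weeks, while Il17rd is red at 4 and 10 weeks and near white in both β-catenin loss arrays.

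At 4 weeks of SmoM2, 3 of the 49 members differed from control at an adjusted p under 0.05. That is 6.12% of them, against 3.24% of all genes tested. Il17rd rose and Il15ra and Il17rb fell, where 2.44% of all genes rose and 0.798% fell. The 4-week and control arrays did not overlap for 4 members above and 11 below the controls, and for 9.17% and 8.12% of all genes (17.3% in either direction). The median difference from control was -0.25 over the members and -0.05 over all genes (log2), and 34 of the 49 members had a lower mean than in the controls. With the replicate number of the title as a block, 10 members passed, and the text gives the blocked value beside each of the 7 that it adds. A block by experiment number, which differs from the title number at 10 weeks, was also run. No member passed at 3 days, 1 week or 10 weeks (0% of all genes at 3 days and at 1 week, 0.7% at 10 weeks), although 0, 5 and 11 members had an unadjusted p under 0.05 at these times (0, 10.2 and 22.4% of members, against 1.55, 4.74 and 10.6% of all genes). Between β-catenin loss with SmoM2 and SmoM2 alone, 3 members differed (6.12%, against 2.23% of all genes). Il6ra and Il22ra2 were higher with the loss and Il17rd was lower (0.644% and 1.58% of all genes). These groups did not overlap for 14 members above and 6 below SmoM2 alone, and for 11.1% and 17.6% of all genes (28.6% in either direction). Both comparisons use the same 4-week SmoM2 arrays, so opposite signs in them are not independent. Against the untreated controls, β-catenin loss with SmoM2 called 0 members (0.371% of all genes), and 7 had an unadjusted p under 0.05 (14.3%, against 14.6% of all genes). In bulk samples, fewer cells of a type and less RNA per cell cannot be told apart.

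**Figure D2:**
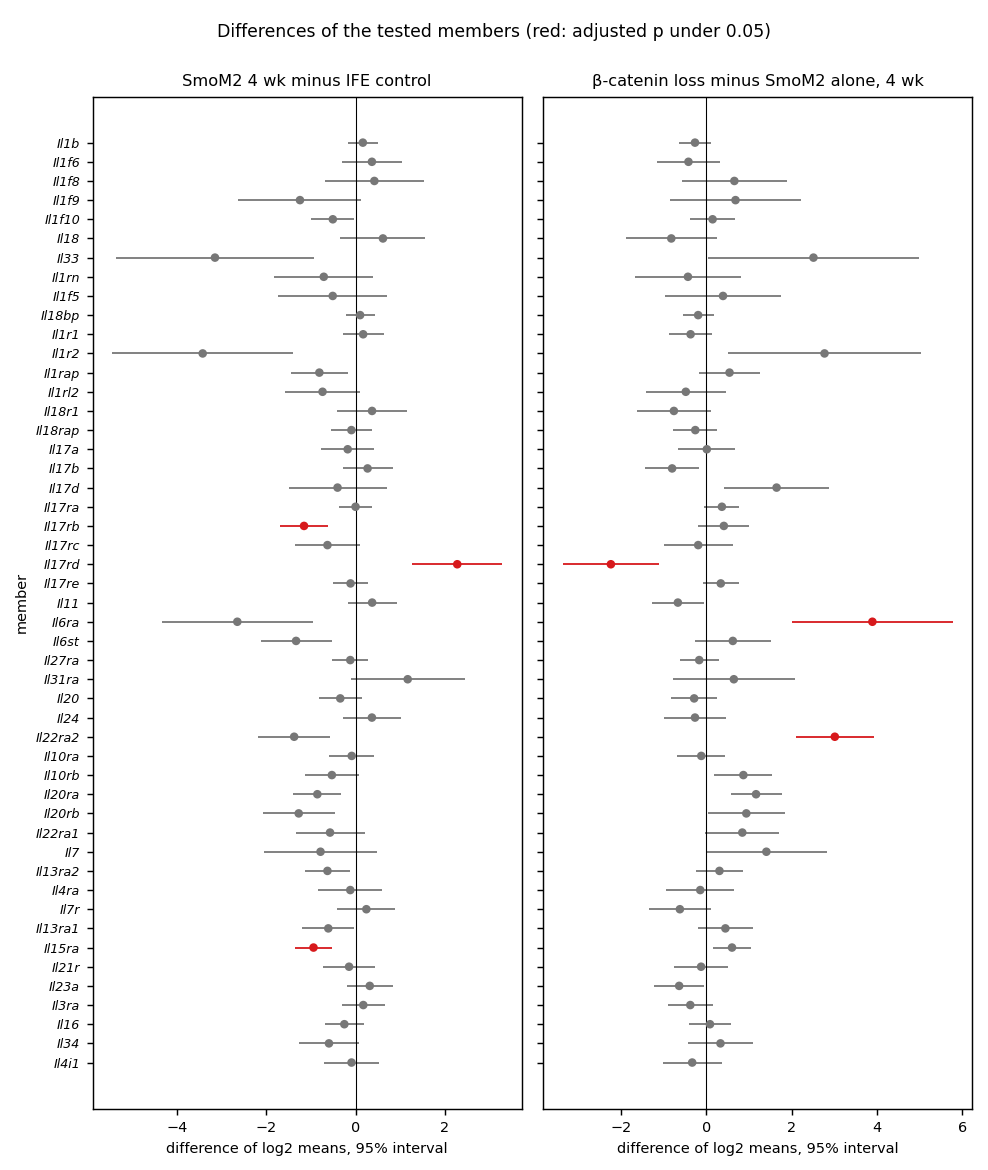
Differences of group means with 95% intervals (horizontal axis, log2) for the 49 tested members (vertical axis), at the left for 4 weeks of SmoM2 (n = 3) minus IFE control (n = 3), at the right for β-catenin loss (n = 2) minus SmoM2 alone (n = 3). Red marks an adjusted p under 0.05, 3 members on each side, and Il17rd is the one member that is red in both.

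The IL-17 receptors gave the one member called higher at 4 weeks against control. Il17rd encodes an IL-17 receptor family member also known as Sef, an inhibitor of fibroblast growth factor signalling. Its signal was 5.89, 5.402 and 6.12 in the controls and 5.41 at 3 days, then 7.06, 8.11 and 6.12 at 1 week. It was 8.83, 7.42 and 7.99 at 4 weeks and 7.31 and 7.05 at 10 weeks. With β-catenin loss it was 5.71 and 5.99. The 4-week and 10-week arrays all lay above the controls, both β-catenin loss arrays lay within the control range, and the third array at 1 week was at the level of the highest control. The rise at 4 weeks was 2.27 ± 0.46 (SE, log2; 4.84-fold, adjusted p = 0.0265), and the difference at 10 weeks was 1.38 ± 0.51 (adjusted p = 0.302). Il17rd was 4.69-fold lower with β-catenin loss than with SmoM2 alone (-2.23 ± 0.51, adjusted p = 0.0491). A second, dimmer Il17rd probe set gave 0.49 at 4 weeks, 0.16 at 10 weeks and -0.63 with β-catenin loss relative to SmoM2 alone. The rise at 4 weeks lost its call without control 1, 2 or 3 (2.32, 2.07 and 2.43; adjusted p = 0.0683, 0.107 and 0.0778) or without 4-week array 1 (1.90, 0.0709). The difference with β-catenin loss lost its call without 4-week array 1 or 3 (-1.86 and -2.28; 0.0987 and 0.0757) or either loss array (-2.09 and -2.37; 0.351 and 0.116). It was also lost under 6 other alternatives, among them quantile normalization (-2.09, 0.0736) and centring each array on its median (-2.06, 0.0552), and passed under 7 of 17. A model of only the control, 1-week and 4-week arrays with the replicate block gave an adjusted p of 0.055 for the rise.

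Il17rb, the receptor chain for IL-25, fell. Control signals were 6.87, 6.65 and 6.78, and the 3-day array gave 6.99. The arrays read 5.84, 5.21 and 6.18 at 1 week, 5.65, 5.42 and 5.77 at 4 weeks, and 6.02 and 6.16 at 10 weeks. β-catenin loss gave 6.28 and 5.78. Every SmoM2 array from 1 week on, with or without β-catenin, was below every control. The fall at 4 weeks was -1.16 ± 0.24 (2.23-fold, adjusted p = 0.0304). At 1 week the difference was -1.02 ± 0.24 (adjusted p = 0.343) and with β-catenin loss against control it was -0.74 ± 0.27 (0.238). The 4-week call was lost without control 1, 2 or 3 (adjusted p = 0.0916, 0.101 and 0.0971) or 4-week array 1 or 2 (0.068 and 0.0849), with differences of -1.06 to -1.21 in these fits, and with Y-linked signal as a covariate (-1.19, 0.053). The other IL-17 receptor chains did not pass. Il17ra, the chain shared by the family, differed by less than 0.005 at 4 weeks (-0.00 ± 0.17, adjusted p = 0.997, 95% interval from -0.38 to 0.37). Il17rc and Il17re, partner chains for IL-17A or IL-17F and for IL-17C, differed by -0.63 ± 0.33 and -0.11 ± 0.17. Of the ligands, Il17d gave 7.02 in the first β-catenin loss array and 3.81 to 5.03 in the other 15, while Il17a read 4.95 to 5.97 and Il17b 5.44 to 6.93 across all 16.

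The promoters of Il17rd and Il17rb, which moved in opposite directions at 4 weeks, and of Il6ra are shown because they carry more CpG pairs than most. Each is the RefSeq stretch (GRCm38.p6) from 250 bases before to 50 after the annotated start, written 5′ to 3′ on the gene's own strand, with each CpG in capitals.
Il17rd, chr14:27038751-27039050, plus strand: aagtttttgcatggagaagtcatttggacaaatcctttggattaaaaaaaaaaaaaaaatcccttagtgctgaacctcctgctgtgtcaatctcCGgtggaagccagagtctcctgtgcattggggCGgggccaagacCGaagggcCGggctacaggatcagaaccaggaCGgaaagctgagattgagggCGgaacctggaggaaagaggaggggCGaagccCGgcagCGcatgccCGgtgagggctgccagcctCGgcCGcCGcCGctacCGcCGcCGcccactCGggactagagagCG
Il17rb, chr14:30008847-30009146, minus strand: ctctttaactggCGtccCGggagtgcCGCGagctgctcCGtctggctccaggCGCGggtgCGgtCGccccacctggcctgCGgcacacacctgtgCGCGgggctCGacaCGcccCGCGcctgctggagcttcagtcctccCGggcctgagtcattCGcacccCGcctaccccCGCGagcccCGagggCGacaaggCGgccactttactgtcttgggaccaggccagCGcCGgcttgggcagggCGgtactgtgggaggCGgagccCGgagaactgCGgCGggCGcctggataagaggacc
Il6ra, chr3:89913147-89913446, minus strand: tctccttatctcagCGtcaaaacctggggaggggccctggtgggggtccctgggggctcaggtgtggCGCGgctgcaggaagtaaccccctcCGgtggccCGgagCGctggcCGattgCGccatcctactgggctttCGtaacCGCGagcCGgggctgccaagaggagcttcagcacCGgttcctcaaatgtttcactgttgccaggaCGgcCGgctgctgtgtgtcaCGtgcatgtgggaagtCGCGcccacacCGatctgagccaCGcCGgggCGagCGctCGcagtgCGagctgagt
They hold 19, 32 and 25 CpG pairs, against a median of 7 (quartiles 3 and 20) over 32851 promoters of this length and a median of 5 over the 70 promoters found for 57 members. Because these 3 were chosen by that count, the contrast is no result about the members called. On either strand, the letters GACCACCCA, a GLI motif core, stood in 0 of the 70 member promoters and in 0.253% of all promoters. CTTTGAT, a TCF/LEF core, stood in 2 (3.73% of all), and TTCNNNGAA, a STAT core, in 10 (8.3% of all). None of the 3 motifs is in the 3 windows shown.

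Il6ra, the receptor that binds IL-6, had the largest difference with β-catenin loss of all members tested. Its signal was 7.06, 9.88 and 9.15 in the controls and 9.13 at 3 days. It was 6.22, 6.49 and 8.47 at 1 week, 5.30, 5.51 and 7.34 at 4 weeks, and 6.79 and 7.36 at 10 weeks. Both β-catenin loss arrays were high, at 10.05 and 9.83. They lay above every SmoM2 array, whereas the controls were spread widely and the first control overlapped the 4-week arrays. The rise with β-catenin loss relative to SmoM2 alone was 3.89 ± 0.86 (14.9-fold, adjusted p = 0.0447), and a second probe set of lower signal gave 1.30. That call was lost without 4-week array 1 or 2 (3.52 and 3.62; adjusted p = 0.089 and 0.0918) or either loss array (3.78 and 4.00; 0.318 and 0.116). It was also lost under 6 other alternatives (adjusted p of 0.052 to 0.0998), quantile normalization (3.95, 0.057) among them, and passed under 7 of 17. At 4 weeks of SmoM2 alone the difference from control was -2.65 ± 0.77 (adjusted p = 0.0956), and with the replicate block it passed (0.0219). The probe set of lower signal gave -0.71.

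Il6st, which encodes gp130, read 8.82, 9.50 and 10.09 in the controls and 9.24 at 3 days. At 1 week it was 7.85, 8.33 and 9.12, at 4 weeks 8.17, 7.71 and 8.52, at 10 weeks 9.04 and 9.13, and with β-catenin loss 8.70 and 8.82. All 4-week arrays were below all controls, while the 10-week arrays were back within the control range. The 4-week difference was -1.33 ± 0.36 (adjusted p = 0.0754, and 0.0134 with the block). Of 3 further Il6st probe sets, 2 gave -1.0 and -0.95 and the third -0.12. Il31ra, a receptor chain for the itch cytokine IL-31, ran the other way. It read 5.14 to 5.73 in the controls, 6.21, 7.43 and 6.35 at 4 weeks, 7.50 and 6.64 at 10 weeks, and 6.35 and 8.28 with β-catenin loss. All arrays of these 3 groups lay above the controls, but the differences of 1.17 ± 0.58, 1.57 ± 0.65 and 1.81 ± 0.65 had adjusted p of 0.396, 0.385 and 0.23. A second Il31ra probe set gave 1.29 at 4 weeks and 2.63 at 10 weeks. Il11, a ligand that signals through gp130, differed by 0.37 ± 0.25 at 4 weeks and by -0.66 ± 0.28 with β-catenin loss (adjusted p = 0.588 and 0.253).

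**Figure D3:**
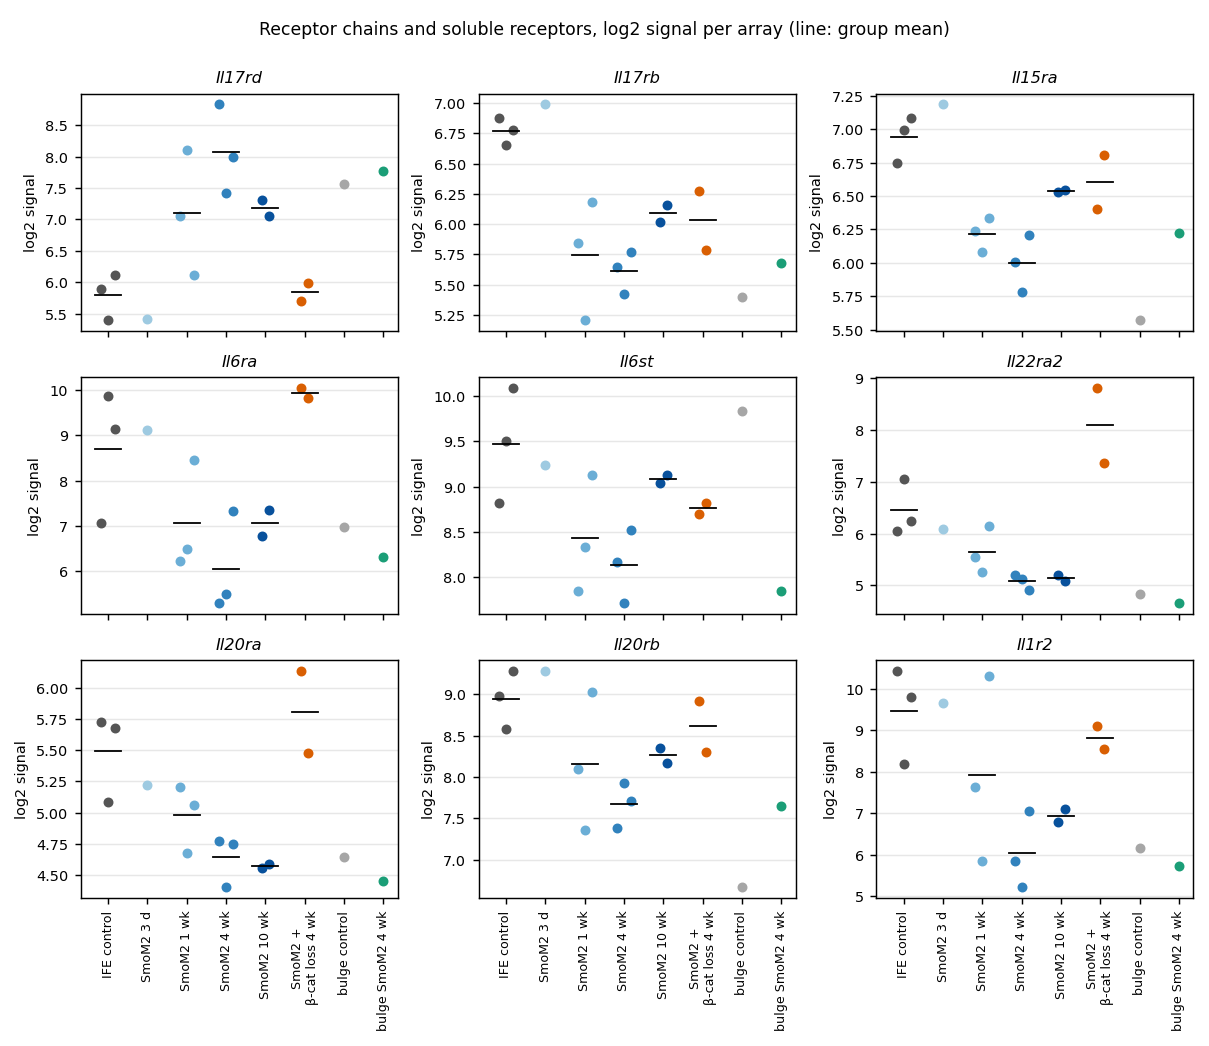
Log2 signal per array (points) with group means (lines) of 9 receptor chains and soluble receptors in the 8 groups; each panel has its own vertical axis, which does not start at 0. Il17rd stands at 7.42 to 8.83 at 4 weeks and at 5.71 and 5.99 with β-catenin loss, while Il6ra, Il22ra2, Il20ra and Il1r2 are low at 4 and 10 weeks and higher in both β-catenin loss arrays.

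Within the IL-10 family the soluble decoy for IL-22 stood out. Il22ra2, which encodes IL-22 binding protein, read 6.05, 7.05 and 6.25 in the controls and 6.09 at 3 days. It was 5.56, 5.25 and 6.14 at 1 week, 5.20, 5.12 and 4.90 at 4 weeks and 5.19 and 5.09 at 10 weeks. With β-catenin loss it was 8.81 and 7.36. The 4-week and 10-week arrays were below all controls, and both loss arrays were above every other array of the series. The 4-week arrays lay near the 40th percentile of their arrays (4.895, 5.007 and 4.929), and the third was below it. Differences from them are thus measured against a group near background. The rise relative to SmoM2 alone was 3.01 ± 0.42 (8.08-fold, adjusted p = 0.0122), and relative to the controls the difference was 1.64 ± 0.42 (adjusted p = 0.114). Without the first loss array, the one with low hedgehog targets, the difference from SmoM2 alone was 2.29 (adjusted p = 0.122), and in a fit of only these groups its adjusted p was 0.0571. At 4 weeks of SmoM2 alone the difference from control was -1.38 ± 0.37 (adjusted p = 0.0728).

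Il20ra and Il20rb encode the chains of the type I receptor for IL-19, IL-20 and IL-24. Il20ra read 5.73, 5.08 and 5.68 in the controls, 4.77, 4.40 and 4.74 at 4 weeks, 4.55 and 4.58 at 10 weeks, and 6.14 and 5.48 with β-catenin loss. The SmoM2 arrays at 4 and 10 weeks lay below all controls and all loss arrays. However, Il20ra was above the 40th percentile in only 8 arrays, none of them at 4 or 10 weeks of SmoM2 alone. Its differences are thus between higher groups and groups near background. The difference at 4 weeks was -0.86 ± 0.24 (adjusted p = 0.0883, and 0.0205 with the block), and with β-catenin loss relative to SmoM2 alone it was 1.17 ± 0.27 (adjusted p = 0.0508). Without the second loss array the latter passed (1.498, 0.0493), and without the first it was 0.84 (0.406). Il20rb read 8.98, 8.58 and 9.28 in the controls, 7.38, 7.93 and 7.71 at 4 weeks and 8.93 and 8.31 with β-catenin loss. Its 4-week arrays were below all controls, with a difference of -1.27 ± 0.37 (adjusted p = 0.093, and 0.039 with the block). Il20rb passed under only 1 of 19 alternatives, and not with the block by experiment number. Il22ra1, the signalling chain for IL-22, and Il10rb, the chain shared by the IL-10 and IL-22 receptors, differed by -0.57 ± 0.35 and -0.53 ± 0.28 at 4 weeks and by 0.85 ± 0.40 and 0.87 ± 0.31 with β-catenin loss, none past the threshold. With a block over only the control, 1-week and 4-week arrays, the 4-week difference of Il22ra1 passed (adjusted p = 0.0407). The ligand genes Il20 and Il24 read 5.46 to 6.55 and 4.19 to 5.22 across the arrays. At 4 weeks, 7 of the 8 tested members of this family had a lower mean than in the controls, with 0 calls.

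Il15ra, the chain that presents IL-15 to lymphocytes, had the lowest adjusted p of all members at 4 weeks. It read 6.75, 6.99 and 7.08 in the controls, 7.18 at 3 days, 6.24, 6.08 and 6.34 at 1 week, and 6.01, 5.78 and 6.21 at 4 weeks. The 10-week arrays gave 6.53 and 6.54, and with β-catenin loss 6.40 and 6.81. The groups at 1, 4 and 10 weeks lay below all controls, and the second loss array lay within the control range. The fall at 4 weeks was -0.94 ± 0.18 (1.92-fold, adjusted p = 0.0248), and a second probe set gave -0.93. The differences were -0.72 ± 0.18 at 1 week (adjusted p = 0.388) and -0.40 ± 0.21 at 10 weeks (0.548). The 4-week call was lost without control 2 or 3 (-0.92 and -0.87; 0.101 and 0.0903), without 4-week array 1 or 2 (-0.95 and -0.84; 0.0615 and 0.0617), and in a fit of only these groups (0.0817). The IL-15 gene itself was not tested.

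Il13ra1, a receptor chain for IL-4 and IL-13, and Il13ra2, a decoy for IL-13, differed by -0.61 ± 0.27 and -0.63 ± 0.23 at 4 weeks (adjusted p = 0.295 and 0.193). Il13ra2 then read 6.38 and 6.47 at 10 weeks, above the controls (5.52 to 6.18) and the 4-week arrays (5.09 to 5.35). Its difference between 10 and 4 weeks was 1.21 ± 0.26 (adjusted p = 0.516), and no gene of the array passed in that comparison (0% called; 5 members had an unadjusted p under 0.05, or 10.2%, against 6.25% of all genes). Il4ra differed by -0.12 ± 0.33 (0.27 without 4-week array 1) and Il7r by 0.24 ± 0.30 at 4 weeks. Il7, a T-cell growth factor that keratinocytes make, read 5.395 to 7.29 in the controls, 5.17 to 6.60 at 4 weeks and 7.24 and 6.91 with β-catenin loss, a difference from SmoM2 alone of 1.41 ± 0.65 (adjusted p = 0.292). The ligand gene Il23a read 3.93 to 5.11 across the arrays and was above the 40th percentile in only 3. It differed from control by 0.15 at 1 week and 0.32 at 4 weeks, with 0 calls.

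The IL-1 family, with 16 tested members, had no call in any IFE comparison, yet held the largest 4-week differences. Il1r2, the decoy receptor that binds IL-1 without signalling, read 10.42, 8.20 and 9.80 in the controls and 9.66 at 3 days. It was 7.63, 5.86 and 10.30 at 1 week, 5.85, 5.23 and 7.06 at 4 weeks, 6.78 and 7.10 at 10 weeks, and 9.09 and 8.55 with β-catenin loss. The 4-week and 10-week arrays were below all controls and both loss arrays lay within the control range. The difference was -3.42 ± 0.93 at 4 weeks (10.7-fold lower, adjusted p = 0.073, and 0.0176 with the block) and -2.53 ± 1.03 at 10 weeks (adjusted p = 0.375). With β-catenin loss relative to SmoM2 alone it was 2.77 ± 1.03 (adjusted p = 0.189).

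Il33, an alarm signal stored in keratinocyte nuclei, read 9.53, 9.17 and 10.09 in the controls and 10.11 at 3 days. At 1 week it was 9.45, 6.04 and 10.17, at 4 weeks 6.95, 4.38 and 8.002, at 10 weeks 8.33 and 8.68, and with β-catenin loss 8.49 and 9.43. The second 1-week array and all 4-week and 10-week arrays lay below every control. The 4-week difference of -3.15 ± 1.01 had an adjusted p of 0.133, and 0.0448 with the block. Leaving out the second 4-week array took it to -2.12 (adjusted p = 0.357). Il1f9, also known as Il36g, one of the IL-36 cytokines, read 6.33, 6.43 and 7.68 in the controls, against 4.71, 5.10 and 6.88 at 4 weeks. The groups overlapped, but each 4-week array lay below the control of the same number, and the difference of -1.25 ± 0.63 (adjusted p = 0.4) passed with the block (-1.25 ± 0.23, 0.018). Il1f9 passed under only 2 of 19 alternatives, and not with the block by experiment number.

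Il18, which inflammasomes activate, read 5.67, 5.12 and 5.39 in the controls, 4.89, 6.20 and 6.93 at 4 weeks and 6.92 and 7.21 at 10 weeks. Both 10-week arrays were above the controls, with a difference of 1.67 ± 0.49 (adjusted p = 0.155), and the 4-week arrays spread from below to above the control range. Il18r1, its receptor chain, read 4.09 to 4.68 in the controls and 5.47 and 5.60 at 10 weeks (1.10 ± 0.40, adjusted p = 0.286). It was above the 40th percentile in only 5 arrays, none of them an IFE control, so this difference starts from near background. Il1rn, the IL-1 receptor antagonist, read 6.80, 6.0 and 7.22 in the controls, 5.28, 5.28 and 7.32 at 4 weeks, 7.54 and 7.68 at 10 weeks and 5.68 and 5.39 with β-catenin loss. Its 10-week arrays were the highest of the IFE arrays and its loss arrays were below every control, with differences of 0.94 ± 0.56 and -1.14 ± 0.56 (adjusted p = 0.672 and 0.378). Il1f5 (Il36rn), the IL-36 receptor antagonist, and Il1rl2, the IL-36 receptor, differed by -0.51 ± 0.56 (0.27 without 4-week array 2) and -0.74 ± 0.38 at 4 weeks. Il1r1, the signalling IL-1 receptor, and Il1rap, the accessory chain shared by IL-1 family receptors, differed by 0.17 ± 0.21 and -0.81 ± 0.29 (adjusted p = 0.819 and 0.191). Il1b read 5.14 to 5.73 and Il1f6 4.52 to 5.82 across the arrays, and Il1f8 (4.90 to 6.53 in 15 arrays) gave 7.55 in the first loss array.

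**Figure D4:**
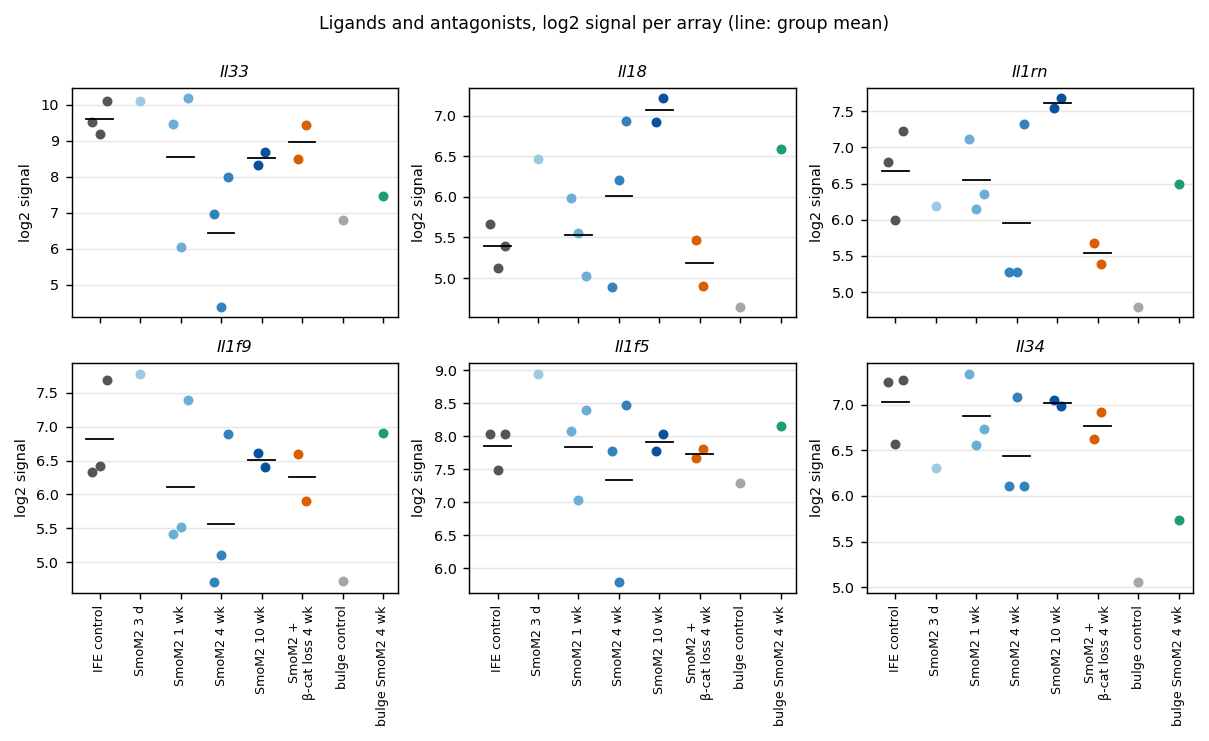
Log2 signal per array (points) with group means (lines) of 6 ligands and antagonists in the 8 groups; each panel has its own vertical axis, which does not start at 0. Il33 reads between 4.38 and 8.002 at 4 weeks, and Il18 and Il1rn are highest among the IFE groups at 10 weeks.

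Other genes moved in the same samples. Markers of antigen presenting cells had a median difference of 0.36 at 4 weeks (7 of 9 genes higher, 0 called) and of -0.62 with β-catenin loss relative to SmoM2 alone (0 of 9 higher, 0 called); their list means were 5.95 to 7.05 in the controls, 6.08 to 7.42 at 4 weeks and 5.42 to 6.57 with β-catenin loss. The fibroblast list had 5.33 to 5.80, 6.08 to 6.54 and 4.92 to 5.31 in these groups, with 1 of 6 genes called higher at 4 weeks. Suprabasal keratinocyte markers had 9.94 to 10.24, 8.70 to 10.36 and 9.40 to 9.74, with 1 of 7 called lower at 4 weeks. Bulge and outer root sheath markers had 8.44 to 8.82, 9.65 to 10.15 and 8.55 to 9.52, and 3 of 8 (Lgr5, Lhx2 and Tcf7l1) were called higher at 4 weeks. The list did not rise as a whole: 6 of 8 had a higher mean at 4 weeks than in the controls, with 0 called lower. Krt15 (12.31 to 12.51, controls 12.51 to 12.90) and Col18a1 (9.23 to 10.25, controls 10.34 to 10.80) had lower means. Cd34 stayed low, at 3.685 to 4.348 at 4 weeks and 3.775 to 4.148 in the controls. Basal markers had 12.62 to 12.72, 12.05 to 12.21 and 12.19 to 12.60, with a median difference of -0.66 at 4 weeks and 0 of 6 called. Handling and immediate-early genes had a median difference of 0.65 at 4 weeks (9 of 9 higher, 0 called) and of -0.63 with β-catenin loss relative to SmoM2 alone (0 of 9 higher, 0 called). Melanocyte markers were at -1.60 and -1.42 in these comparisons (0 of 5 higher in either, 0 called), and leukocyte markers at 0.15 and -0.37 (6 and 0 of 8 higher, 0 called). The T-cell, mast cell and endothelial lists had 4, 2 and 2 genes tested and 0 called in both. Hedgehog targets were 10.47 to 11.64 at 4 weeks, and 7.43 and 9.95 with β-catenin loss. Their part in the interleukin results was not tested.

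Among 53 partners, transducers and inhibitors of interleukin receptors on the array, 49 were tested. Of these, 3 passed at 4 weeks, where 3.24% of all genes did. Cntfr, a gp130-linked receptor for ciliary neurotrophic factor, rose by 1.73 ± 0.28 (adjusted p = 0.0123). Its arrays read 6.11, 6.54 and 6.14 in the controls, against 7.80, 8.05 and 8.14 at 4 weeks. Jak1, the kinase used by most of these receptors, fell from 9.92, 10.42 and 10.48 to 9.18, 9.15 and 9.43 (-1.02 ± 0.22, adjusted p = 0.034), and Socs5, a suppressor of cytokine signalling, rose from 8.70, 7.78 and 8.23 to 9.55, 9.21 and 9.30 (1.12 ± 0.27, 0.0485). None of these groups overlapped. The calls passed under 17 (Cntfr), 12 (Jak1) and 9 (Socs5) of 19 alternatives. Those of Cntfr and Jak1 were lost without control 2 or 3 (Cntfr 0.0518 and 0.0618, Jak1 0.128 and 0.132), that of Jak1 also without 4-week array 1 or 2 (0.0867 and 0.0899), and that of Socs5 without any 1 of the 6 arrays (0.0509 to 0.181). On averaging probe sets, Jak1 also lost its call (-0.915, adjusted p = 0.344). The list's median difference was 0.07, against -0.05 for all genes. With β-catenin loss relative to SmoM2 alone 0 of 49 passed (2.23% of all genes), and Cntfr differed by -1.29 ± 0.31 (adjusted p = 0.0533).

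The untreated bulge array is a single sample, so its p-values assume that it varies like the other groups and hold no spread of its own. It had 7 members called lower than the IFE controls (14.3%, against 1.28% of all genes called lower and 4.04% called in either direction) and 0 higher (2.76% of all genes). Il17re, at 8.15 against 9.56, 9.59 and 9.36 in the controls, was lower by -1.35 ± 0.25 (adjusted p = 0.0104). Il17rc, at 7.44 against 9.70, 9.38 and 9.53, differed by -2.10 ± 0.47 (adjusted p = 0.0272), and Il17rb, at 5.401, by -1.37 ± 0.34 (adjusted p = 0.0496). Of the 5 IL-17 receptor chains 3 were thus called lower in this 1 array, Il17ra was level (0.03 ± 0.24) and Il17rd was higher in value (7.56; 1.76 ± 0.65, adjusted p = 0.205). Il15ra (5.57) was lower by -1.37 ± 0.26 (adjusted p = 0.0124), Il13ra1 (8.38) by -1.54 ± 0.38 (0.0429) and Il20rb (6.67) by -2.27 ± 0.52 (0.0319). Il34, a ligand of the colony stimulating factor 1 receptor made by keratinocytes on which Langerhans cells depend, read 5.06 against 7.25, 6.57 and 7.28, a difference of -1.98 ± 0.44 (adjusted p = 0.0272). All 7 lay below every IFE control. Without 1 of the 3 IFE controls, 2 to 4 of the 7 calls remained: Il17rb was lost without any of them (adjusted p = 0.112, 0.0878 and 0.104), as was Il17rc (0.0676, 0.0517 and 0.0612), while Il15ra and Il17re kept theirs. In a fit of only the groups compared, Il15ra, Il17re, Il13ra1 and Il17rb lost their calls (0.0604, 0.0579, 0.117 and 0.0539), as did Il17re and Il13ra1 on averaging probe sets (0.0759 and 0.0889). Il13ra1 passed under 7 and Il17rb under 5 of 14 alternatives. Cntfr was higher in the bulge array (2.22 ± 0.39, adjusted p = 0.00899). Bulge markers had a list mean of 11.20 there and 8.44 to 8.82 in the IFE controls, and suprabasal markers 9.24 against 9.94 to 10.24.

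Between the 2 bulge arrays, with 1 array each, there is no test. After tamoxifen 6 of the 49 members were at least 2-fold higher (4.35% of all genes) and 1 at least 2-fold lower (2.59%). The largest differences upwards were those of Il1f9 (4.72 to 6.90), Il18 (4.64 to 6.58), Il1rn (4.79 to 6.50), Il13ra1 (8.38 to 9.77) and Il1f8 (4.90 to 5.95). The largest differences downwards were those of Il6st (9.84 to 7.85), Il6ra (6.98 to 6.31), Il31ra (7.88 to 7.23), Il17b (6.46 to 5.89) and Il10rb (8.67 to 8.09). Averaging all probe sets of a gene took the Il6st difference from -1.98 to -0.84. Il17rd was near the same level in both (7.56 and 7.78). In the test of whether the bulge and IFE differences at 4 weeks differ, 0 members and 0% of genes passed, and 8 members had an unadjusted p under 0.05 (16.3%, against 7.14% of all genes). Among them were Il15ra (1.60 ± 0.37, adjusted p = 0.181), Il13ra1 (1.999 ± 0.53, 0.237) and Il17rd (-2.06 ± 0.92, 0.67).

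**Figure D5:**
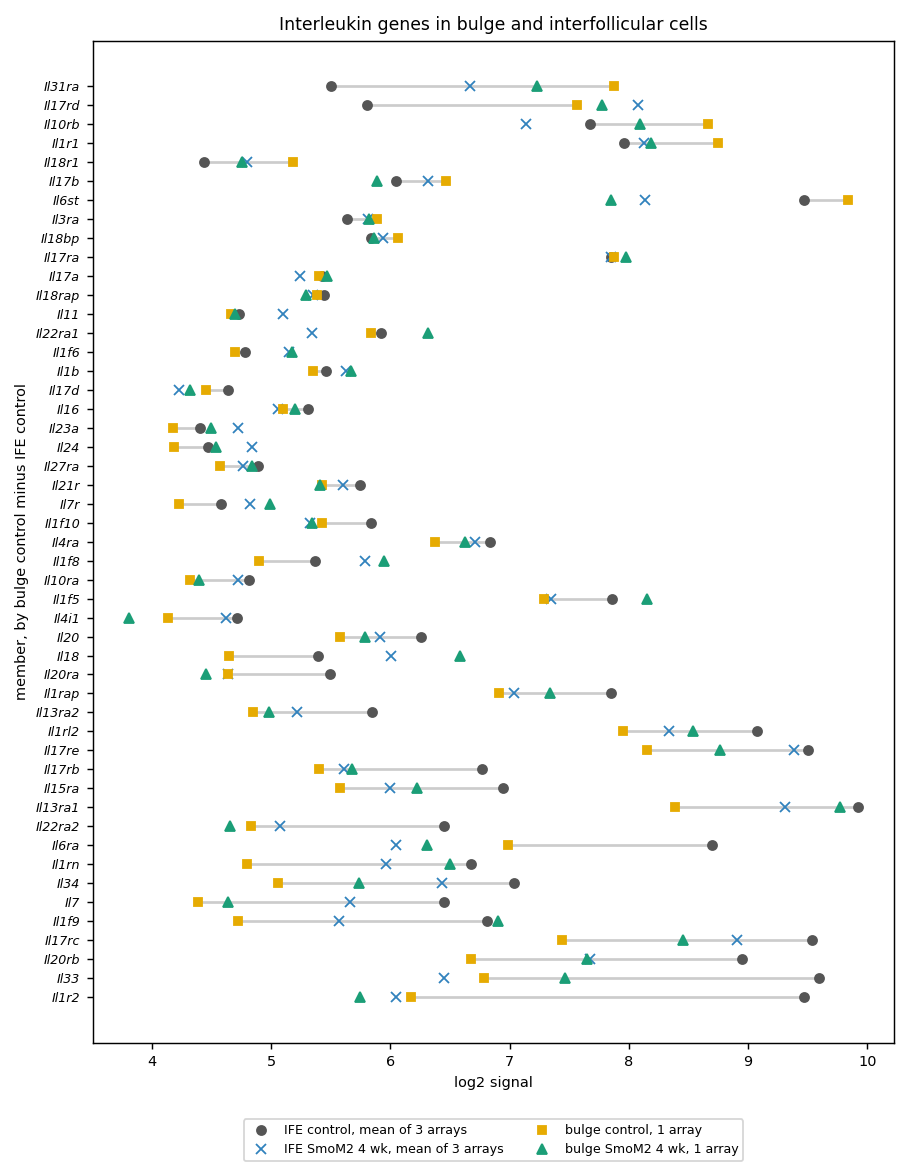
Log2 signal (horizontal axis) of the 49 tested members (vertical axis) in the IFE controls and IFE SmoM2 at 4 weeks (means of 3 arrays) and in the single bulge arrays without and with tamoxifen. Grey lines join the IFE and bulge controls, and members are ordered by that difference, from Il31ra and Il17rd at the top to Il33 and Il1r2 at the bottom.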

How the data were processed

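Sorted mouse epidermal cells were profiled on 16 Affymetrix arrays with a 3′ in vitro transcription kit, per the labels' protocols. The authors deposited 1 table of log2 values for 45101 probe sets, with array medians of 5.38 to 5.53. R 2.14.0 is named in the submitters' processing notes. Background correction and normalization: not given in the sources used here. Precision is limited by the number of arrays.

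Of the probe sets mapped to 1 symbol alone, the one with the highest mean over all arrays stood for its gene. Genes above the array's 40th percentile in at least 2 of 16 arrays (14286) went into limma 3.58.1 (R 4.3.3). Group means were fitted over the 14 IFE arrays, and over all 16 for the bulge, with Benjamini-Hochberg adjustment over all genes and a threshold of 0.05. The script was tested on simulated data. All 73 members matched the RefSeq gene table by identifier. The members, families and marker and partner lists were chosen with earlier results of these data known. Named are members past the threshold, the 5 largest differences each way in the main comparisons and between the bulge arrays, and a list of epidermal interleukins.

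Same-numbered control, 1-week and 4-week arrays deviated together (r = 0.343 to 0.696, against -0.532 to -0.002 for other numbers). Deviations from a group mean cancel within a group, so high same-number values push the others down and the ranges are not independent. The numbers were used as pairs in the blocked alternatives only. The main model has no block, and blocked values stand beside the 4-week results they change. The β-catenin loss arrays did not pair in this way. Alternatives were other filters, scalings, probe set averages, models and array weights, Y-linked signal as a covariate, replicate blocks and leaving out each replicate.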

Additional observations from a re-analysis of the deposited data

Results flagged for a closer look

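A total of 3 members differed between SmoM2 with β-catenin loss and SmoM2 alone at 4 weeks by the test of the difference itself (limma, n = 2 and 3). That is 6.12% of the 49 tested, against 2.23% of all genes. Il6ra was higher by 3.89 (log2), Il22ra2 was higher by 3.01 and Il17rd was lower, at -2.23. In all 3 both loss arrays lay outside the range of the 4-week SmoM2 arrays. Hedgehog targets were lower in the first loss array (Gli1 at 7.22) than in the second (9.56), and their part in these differences was not tested. With the second loss array alone the differences were 3.78, 2.29 and -2.09, which leaves 1 array in the loss group. The calls of Il6ra and Il17rd passed under only 7 of 17 alternatives each, and that of Il22ra2 under 15 of 17.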

How the results depend on the processing

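No called result for a named gene changed sign under any alternative run. Among uncalled ones, 5 did. At 4 weeks they were Il17ra (-0.002; 0.036 on averaging probe sets, -0.07 to 0.037 without 1 replicate), Il4ra (-0.12; 0.161 with Y-linked signal as a covariate, -0.37 to 0.274 without 1 replicate), Il1f5 (-0.51; -1.077 to 0.265 without 1 replicate) and Il1r1 (0.17; -0.059 to 0.283 without 1 replicate). For the bulge control it was Il17ra (0.03; -0.008 on centring arrays, -0.134 on averaging probe sets, -0.086 with the block by experiment number, -0.01 to 0.068 without 1 IFE control). At 4 weeks, where 3 members passed, a replicate block by title number gave 10, by experiment number 8, and a block over only the control, 1-week and 4-week arrays, chosen after seeing the data, 9; leaving out 1 replicate gave 0 to 3. For β-catenin loss against SmoM2 alone, where 3 passed, no filter, array weights and Y-linked signal as a covariate each left 1, a fit of only the groups compared left 0, and leaving out 1 replicate left 0 to 3. The blocks gave 9 by title number and 6 by experiment number there, but the loss arrays share only a number with the others (r = -0.054, -0.086 and -0.128). At 10 weeks, where 0 passed, a fit of only the groups compared gave 4 and array weights gave 10. For the bulge control, where 7 passed, array weights gave 15, the block by experiment number 11 and leaving out 1 IFE control 2 to 4. For the bulge interaction, array weights gave 1 in place of 0. For β-catenin loss against control, leaving out 1 replicate gave 0 to 1, and all other alternatives 0. At 3 days, at 1 week and between time points every alternative gave 0. Over all genes, alternatives other than leaving out replicates gave 320 to 955 calls at 4 weeks (main 463), 59 to 1545 at 10 weeks (main 100), 17 to 1347 for β-catenin loss against SmoM2 alone (main 318), 11 to 169 for β-catenin loss against control (main 53) and 515 to 1404 for the bulge control (main 577). Leaving out 1 replicate gave 13 to 410, 0 to 45, 2 to 247, 1 to 54 and 383 to 416. Where this leaves a group with 1 array, it is assumed to vary like the others. The causes were not tested. Members near background, such as Il18r1, Il20ra and, at 4 weeks, Il22ra2, are measured with least signal.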
